A study of Mus musculus with 17 samples.

Results

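Control skin of C57/BL6j mice, never irradiated, was compared between day 6 after injury and day 0. Each time point had 2 libraries, and the comparison covered the 13913 genes of 34140 in the deposited table that reached 1 FPKM in at least 2 of these 4 libraries. FPKM is the number of sequenced fragments of a gene scaled by its length and by the depth of the library. The wider study asked about TGF-β1 and SMAD signalling in irradiated wounds and holds 17 libraries in 7 groups: control skin at days 0, 3, 6 and 9 and irradiated skin at days 3, 6 and 9. All are whole skin, so fewer cells of a type and less RNA per cell cannot be told apart. The day-0 skin is described only by its time, as control skin. The labels give neither the wound's form, nor the animals' age, nor whether the libraries of a group came from separate animals. The p-values therefore measure the spread between libraries, pooled over all 7 groups, which may not be spread between animals.

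An injured skin is closed by keratinocytes that loosen their contacts, switch on the wound keratins Krt6a, Krt6b, Krt16 and Krt17, divide and migrate over a provisional matrix. Neutrophils and then macrophages enter, fibroblasts lay down matrix and part of them become contractile myofibroblasts, and vessels sprout. TGF-β1 is a cytokine stored in latent form in the matrix. Once active, it binds the receptors Tgfbr2 and Tgfbr1, which phosphorylate Smad2 and Smad3, and these enter the nucleus with Smad4, while Smad7 and Skil are inhibitors of the signal.

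The libraries held 25440773 and 29835196 assigned fragments at day 0 and 27971207 and 29137652 at day 6. Mouse skin includes a thin sheet of striated muscle, and mitochondrial and muscle transcripts took a larger share at day 0. Mitochondrially encoded genes held 31.8% and 21.7% of all FPKM at day 0 and 10.9% and 10.2% at day 6, and a list of skeletal muscle genes held 7.51% and 7.05% against 1.03% and 1.67%. FPKM is a share of the library, so these genes leave less for all others at day 0. The median tested gene stood 0.105 higher at day 6 on the log2 scale. Defining genes of keratinocytes (Krt14), fibroblasts (Col1a1) and fat (Adipoq) were present in all 4 libraries, with the values given below.

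Changes are log2 fold changes of FPKM + 1, day 6 minus day 0, with the standard error (SE) of limma's model over all 17 libraries. An adjusted p under 0.05 passed. At that threshold 5369 genes differed (38.6%), 3169 higher (22.8%) and 2200 lower (15.8%) at day 6. By at least 1 on the log2 scale, 874 were higher (6.28%) and 717 lower (5.15%). The values of the 2 days did not overlap in 62.2% of genes, higher in 37.6% and lower in 24.6%. Among the tested genes 452 reached 1 FPKM only in day-6 libraries and 289 only in day-0 libraries. For those the filter itself fixed the direction and the lack of overlap. With the spread estimated from the 4 libraries alone 773 genes passed, 381 higher and 392 lower, 746 of them also among the 5369. With array quality weights, which are lower for libraries with more spread, 2608 passed. The weights were 0.365 for the day-0 and 0.506 for the day-6 libraries, and reached 4.218 in another group. The balance of directions followed the scaling: 59.0% of passing genes were higher as deposited, 43.9% with median-of-ratios scaling, 44.4% with quantile normalization and 34.5% when FPKM were rescaled to the genes outside the mitochondrial genome. It was 23.7% when the muscle list was left out of that total as well, a scaling added after the data were seen. Without the first day-0 library 1974 genes were higher and 2016 lower. The counts of higher genes are therefore relative to the deposited scale. The bar plot of passing genes by setting shows both effects. Each list below is given with the share of its tested members that passed, to be read against 22.8% higher and 15.8% lower over all genes, and lists near those shares do not stand out by their counts. A gene named below as passing did so under every alternative fit unless an exception stands beside it. Acta1, C1qa, Cd68, Csf3r, Cxcr2, Gm37857, Il1a, Klk14, Klra7, Klra8, Krt15, Lamb3, Tnnc1, Tnni1, Tnnt1 and Tpm3 were named after their values were seen. Krt6a and Krt6b, the Sprr2, stefin A and Serpinb3 genes, and Klra7 and Klra8 have near-identical copies, so the split of fragments between copies is uncertain.

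**Figure D1:**
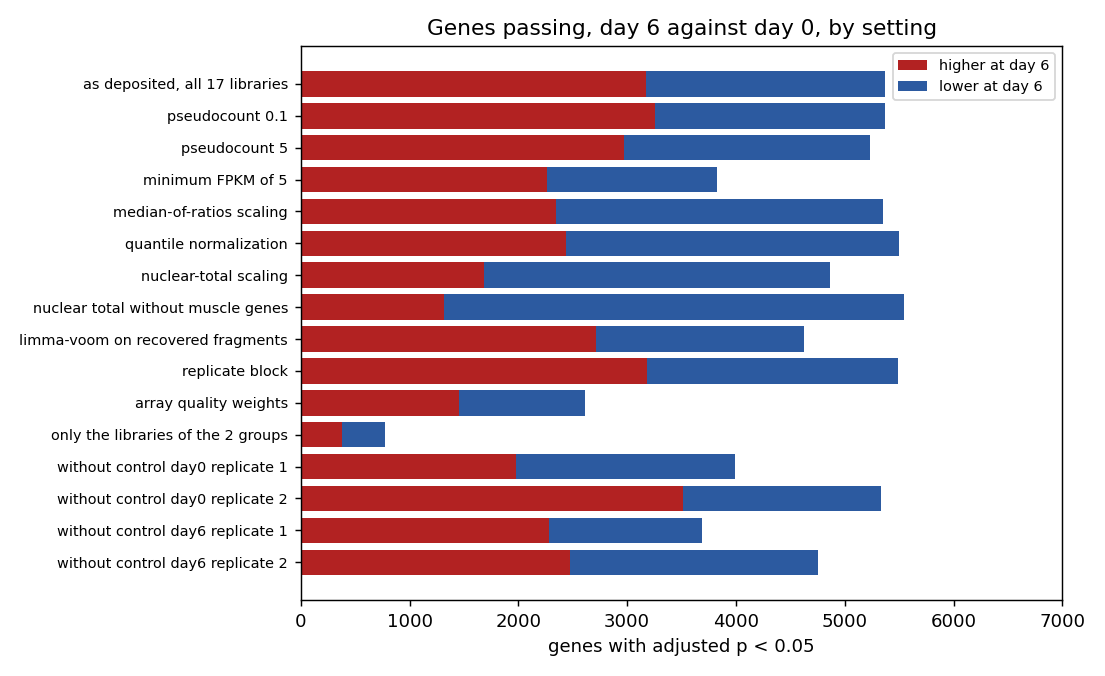
Number of genes with adjusted p under 0.05 (horizontal axis) under each setting, higher at day 6 in red and lower in blue. The total fell from 5369 to 773 with only the 4 libraries, and the share of higher genes went from 59.0% to 23.7% with the most restricted scaling.

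Promoters are shown first for genes whose lists moved together, the wound keratinocyte list and the mitosis list. They are the 250 bases before the RefSeq start site in GRCm38.p6, and capitals mark matches on either strand to 4 motifs. These are the AP-1 motif, TGANTCA, the CCAAT box, the TATAAA form of the TATA box, and the cell cycle homology region, searched as TTTGAA and, as a second form, TTCGAA. Sprr2d (chr3:92338890-92339139, plus strand) holds an AP-1 match, and a TATAAA match that overlaps a CCAAT match. Serpinb3a (chr1:107052304-107052553, minus strand) holds TATAAA. Top2a (chr11:99024190-99024439, minus strand) and Mki67 (chr7:135716380-135716629, minus strand) hold 6 and 3 CCAAT and 4 and 2 cell cycle matches.
Sprr2d: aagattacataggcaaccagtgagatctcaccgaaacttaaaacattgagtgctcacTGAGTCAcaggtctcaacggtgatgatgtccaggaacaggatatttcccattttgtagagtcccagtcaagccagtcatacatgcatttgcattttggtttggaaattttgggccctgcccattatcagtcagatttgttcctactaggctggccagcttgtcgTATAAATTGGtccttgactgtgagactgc
Serpinb3a: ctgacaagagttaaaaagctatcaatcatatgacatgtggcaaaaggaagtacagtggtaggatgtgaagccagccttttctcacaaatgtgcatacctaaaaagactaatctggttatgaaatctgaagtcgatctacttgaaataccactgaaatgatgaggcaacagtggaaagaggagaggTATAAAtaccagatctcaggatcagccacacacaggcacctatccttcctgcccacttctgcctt
Top2a: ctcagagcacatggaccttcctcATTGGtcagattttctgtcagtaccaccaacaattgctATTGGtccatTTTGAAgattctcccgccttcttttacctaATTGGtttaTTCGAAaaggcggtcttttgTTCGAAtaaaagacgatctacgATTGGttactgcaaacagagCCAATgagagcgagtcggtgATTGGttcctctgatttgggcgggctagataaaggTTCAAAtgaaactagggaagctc
Mki67: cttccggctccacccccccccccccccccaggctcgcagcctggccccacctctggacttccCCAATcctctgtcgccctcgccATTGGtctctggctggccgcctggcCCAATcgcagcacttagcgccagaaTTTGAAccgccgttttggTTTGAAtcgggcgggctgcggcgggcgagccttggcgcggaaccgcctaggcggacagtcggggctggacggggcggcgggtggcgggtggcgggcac

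Promoters were taken for the genes of largest change among the passing members that the promoter table holds; those of Stfa3, Melk and Col27a1 were searched and are not printed. The RefSeq start of Col27a1 lies 1408 bases from the gene's start in the deposited table. Stfa3 held 1 CCAAT match, and Melk and Col27a1 held none of the motifs in these 250 bases. The promoter table held 15 of the 20 wound keratinocyte genes and 30 of the 37 mitosis genes. Over the table's whole 300 bases, which run 50 bases past the start site, AP-1 was present in 7 of the 15 wound promoters (46.7%) and in 6.66% of 16842 promoters, and TATAAA in 10 (66.7%) against 10.7%. Neither AP-1 nor TATAAA was frequent in the mitosis promoters, with 0 and 1 of 30. CCAAT was present in 23 of 30 mitosis promoters (76.7%) against 38.0%, and the cell cycle element in 24 (80.0%) against 16.1%. The cell cycle element depends on the window: in the 250 bases before the start site it was present in 9 of 30 (30.0%) against 14.4%. The other shares moved less, to 6 of 15 (40%) against 5.84% for AP-1 and 9 of 15 (60.0%) against 9.77% for TATAAA, with CCAAT in the same 23 of 30 against 35.2%. These are matches of letters and were not tested as binding sites.

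Wound keratinocyte genes were among the most raised genes of the comparison. Of the 20 genes of that list 18 rose and none fell, against 22.8% of all genes tested, with a median of 4.48 against 0.105. The wound keratin Krt6b (ENSMUSG00000023041, chromosome 15, 101676034 to 101680289) had 36.4 and 13.6 FPKM at day 0 and 4491 and 2437 at day 6 (log2 fold change 7.15, SE 0.593, adjusted p 1.84e-05). Krt16, its type I partner in activated epidermis, had 94.4 and 24.6 FPKM at day 0 and 4292 and 2240 at day 6 (log2 fold change 5.97, SE 0.676, adjusted p 8.46e-05). Krt6a had 112 and 56.4 FPKM at day 0 and 3396 and 1613 at day 6 (log2 fold change 4.86, SE 0.545, adjusted p 8.29e-05). Both day-6 libraries lay far above both day-0 libraries for all 3. Krt17, also expressed in hair follicles, had 371 and 140 FPKM at day 0 and 2167 and 642 at day 6 (log2 fold change 2.37, SE 0.627, adjusted p 0.0109), but Krt17 did not pass with only the 4 libraries (adjusted p 0.122), with array weights (adjusted p 0.0519), without the second day-0 library (adjusted p 0.0868) or without the first day-6 library (adjusted p 0.116). The list held 0.34% and 0.21% of all FPKM at day 0 and 11.4% and 3.73% at day 6, so the first day-6 library carried more of it than the second. S100a8 and S100a9, which neutrophils also make, are members of this list. In the first day-6 library they held 5144 and 14580 of its 48300 summed FPKM, and in the second 591 and 1468 of 13700. With only the 4 libraries 12 of the 20 passed, with array weights 13, and between 14 and 18 when 1 library was left out.

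The gene with the highest change was Rptn (ENSMUSG00000041984, chromosome 3, 93393699 to 93399442), which encodes repetin, a protein of the cornified envelope. It had 0.958 and 1.44 FPKM at day 0 and 496 and 524 at day 6 (log2 fold change 7.87, SE 0.506, adjusted p 8.85e-06). Sprr2d, a small proline-rich envelope protein whose promoter is printed above, had 4.1 and 1.33 FPKM at day 0 and 2072 and 175 at day 6 (log2 fold change 7.46, SE 1.11, adjusted p 0.000375). Serpinb3a, a serpin protease inhibitor, had 0 and 0.205 FPKM at day 0 and 435 and 33.1 at day 6 (log2 fold change 6.80, SE 1.01, adjusted p 0.000366). In Sprr2d and Serpinb3a the first day-6 library was far above the second, whereas in Rptn the libraries of day 6 were close. No group overlapped with the other in these genes. Serpinb3a, and Klk13 and Sprr2b below, were under 1 FPKM in both day-0 libraries, so the filter fixed their direction and separation. The stefin Stfa3, an inhibitor of cysteine proteases, had 39.5 and 75.3 FPKM at day 0 and 4980 and 2243 at day 6 (log2 fold change 5.91, SE 0.408, adjusted p 8.85e-06), and Stfa2 had 4.09 and 3.88 FPKM at day 0 and 898 and 293 at day 6 (log2 fold change 6.69, SE 0.568, adjusted p 2.13e-05). The kallikrein Klk13, a serine protease, had 0.53 and 0.73 FPKM at day 0 and 238 and 56.6 at day 6 (log2 fold change 6.17, SE 0.668, adjusted p 7.27e-05). Sprr2b, one of the 12 highest, was high mainly in the first day-6 library, with 0 and 0.0428 FPKM at day 0 and 630 and 12.9 at day 6 (log2 fold change 6.52, SE 1.94, adjusted p 0.0191), and Sprr2b did not pass under 7 alternatives (adjusted p 0.0512 to 0.287), among them 0.0716 without the first day-0 library, 0.057 without the second day-0 library and 0.19 without the first day-6 library.

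**Figure D2:**
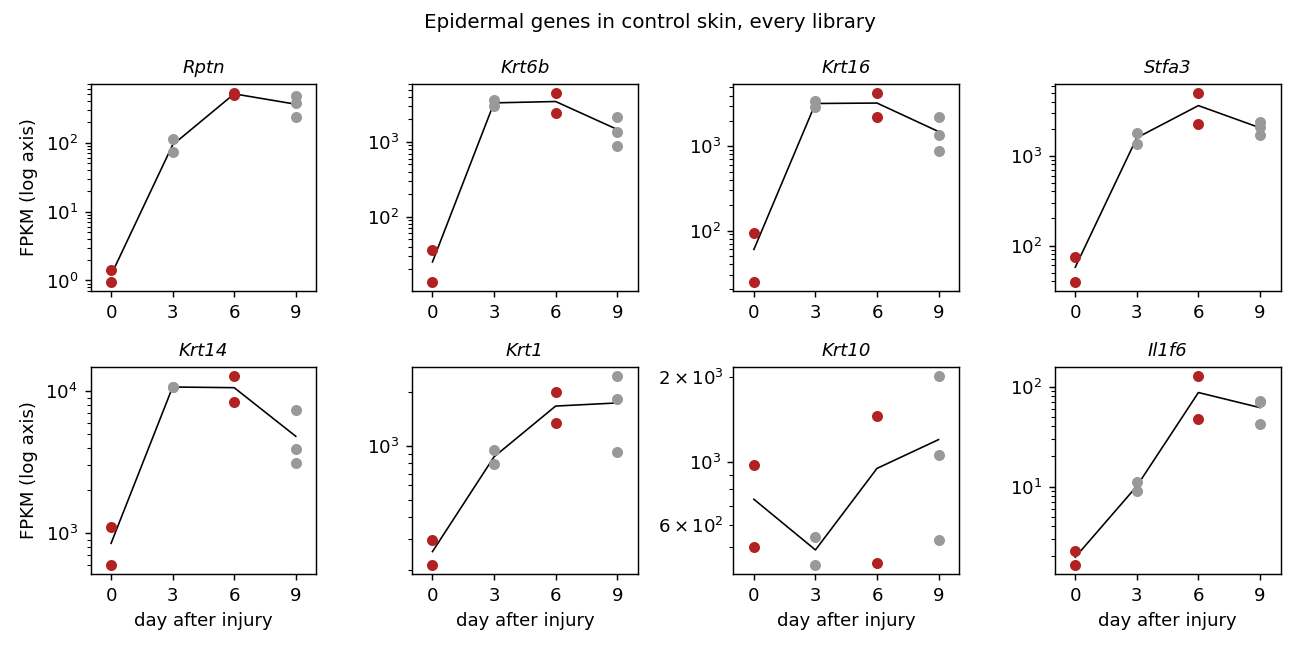
FPKM on a log axis against the day after injury for 8 epidermal genes. Each point is a library, red for days 0 and 6, grey for days 3 and 9, and the line joins the means; for Krt10 the red points of the 2 days overlap.

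The programme of normal epidermal layers changed unevenly. Of 25 tested genes of epidermal keratins and the cornified envelope, 11 rose (44%), 1 fell and 13 did not pass, with a median of 1.03. Krt14, the type I keratin of basal cells, had 1099 and 600 FPKM at day 0 and 12730 and 8384 at day 6 (log2 fold change 3.67, SE 0.514, adjusted p 0.000246). Its partner Krt5 had 939 and 540 FPKM at day 0 and 1534 and 1018 at day 6 and did not pass (log2 fold change 0.81, SE 0.395, adjusted p 0.122). The suprabasal keratin Krt1 had 295 and 215 FPKM at day 0 and 1345 and 2010 at day 6 (log2 fold change 2.70, SE 0.62, adjusted p 0.00494), whereas its partner Krt10 had 973 and 501 FPKM at day 0 and 439 and 1457 at day 6 and did not pass, with overlapping groups (log2 fold change 0.20, SE 0.776, adjusted p 0.862). The difference between partner keratins was not tested. Casp14, the protease that processes filaggrin, had 15.6 and 14.3 FPKM at day 0 and 234 and 249 at day 6 (log2 fold change 3.92, SE 0.501, adjusted p 0.00015). Filaggrin itself, Flg, had 5.36 and 5.74 FPKM at day 0 and 32.9 and 54.1 at day 6 (log2 fold change 2.72, SE 0.688, adjusted p 0.00841), though Flg did not pass without the second day-6 library (adjusted p 0.0535). The list's gene that fell was Krt15, a keratin of basal and follicle bulge cells, with 945 and 628 FPKM at day 0 and 74.9 and 219 at day 6 (log2 fold change -2.58, SE 0.725, adjusted p 0.0147); Krt15 did not pass with array weights (adjusted p 0.0725), with only the 4 libraries (adjusted p 0.0677), without the first day-0 library (adjusted p 0.0837) or without the first day-6 library (adjusted p 0.131). With only the 4 libraries 7 of the list rose, and without the second day-0 library 7 rose and 2 fell.

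Of 24 genes of keratinocyte adhesion and migration, 5 rose (20.8%, close to the 22.8% of all genes) and 1 fell (median 0.84). Lama3, a laminin chain of the epidermal basement membrane, had 5.5 and 3.56 FPKM at day 0 and 30.7 and 17.3 at day 6 (log2 fold change 2.15, SE 0.361, adjusted p 0.000791). Lamb3, also a laminin chain there, had 17.2 and 10.1 FPKM at day 0 and 31.1 and 15.8 at day 6 and did not pass (adjusted p 0.157). The groups did not overlap for Lama3 and did for Lamb3. The count of higher genes was 3 with only the 4 libraries, and 4 to 7 with 1 library left out.

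Of 19 antimicrobial genes 10 rose (52.6% against 22.8% of all genes), none fell and 9 did not pass, with a median of 2.45. The list shares S100a8, S100a9 and Slpi with the wound keratinocyte list, and S100a8 and S100a9 are also in the neutrophil list. The counts of these lists are therefore not separate results. Pglyrp3, which binds bacterial peptidoglycan, had 2.17 and 0.818 FPKM at day 0 and 33.6 and 19.5 at day 6 (log2 fold change 3.47, SE 0.316, adjusted p 2.85e-05). S100a8 and S100a9, subunits of calprotectin made by neutrophils and activated keratinocytes, were high mainly in the first day-6 library. S100a8 had 99.2 and 136 FPKM at day 0 and 5144 and 591 at day 6 (log2 fold change 3.90, SE 1.26, adjusted p 0.028), and S100a9 had 398 and 217 FPKM at day 0 and 14580 and 1468 at day 6 (log2 fold change 3.97, SE 1.25, adjusted p 0.0248). S100a8 did not pass under 6 alternatives (adjusted p 0.0632 to 0.234), among them 0.11 without the first day-0 library, 0.0632 without the second day-0 library and 0.234 without the first day-6 library. S100a9 did not pass under 6 alternatives (adjusted p 0.0574 to 0.222), among them 0.0574 without the first day-0 library, 0.0987 without the second day-0 library and 0.222 without the first day-6 library. The list's count fell to 3 with only the 4 libraries, 4 with array weights and 5 without the first day-6 library.

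Of 41 cytokine and chemokine genes 11 rose (26.8%, near the 22.8% of all genes) and none fell (median 1.06). Among them were 4 genes of the interleukin 1 family, Il1a, Il1f6, Il1f9 and Il33. For Il1a the alternative fits are not given here. Il1f6, the gene of IL-36α, had 1.65 and 2.28 FPKM at day 0 and 128 and 47.1 at day 6 (log2 fold change 4.74, SE 0.434, adjusted p 2.85e-05). Il1f9, the gene of IL-36γ, had 18.1 and 9.27 FPKM at day 0 and 170 and 87.3 at day 6 (log2 fold change 3.13, SE 0.389, adjusted p 0.00013). The alarmin Il33 had 20.1 and 18.3 FPKM at day 0 and 320 and 145 at day 6 (log2 fold change 3.42, SE 0.45, adjusted p 0.000174). The last 3 had separate groups and more in the first day-6 library than in the second. Saa3, an acute-phase gene, had 0.603 and 2.3 FPKM at day 0 and 129 and 50.9 at day 6 (log2 fold change 5.16, SE 1.5, adjusted p 0.0176), and Saa3 did not pass with pseudocount 5 (adjusted p 0.0517), with array weights (adjusted p 0.0565), without the first day-0 library (adjusted p 0.0914) or without the first day-6 library (adjusted p 0.101). The count was 7 with only the 4 libraries, 5 with array weights and 5 without the first day-6 library. Of 27 interferon response genes 0 passed in limma's test, 0 had an unadjusted p under 0.05, and 0 of 26 passed with limma-voom (median -0.14). The day-0 libraries differed in this list, with 194.4 and 460.3 summed FPKM, against 296.5 and 224.1 at day 6. Its median was -0.75 without the first day-0 library and 0.43 without the second.

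Of 18 tested neutrophil genes only S100a8 and S100a9 passed (11.1% against 22.8% of all genes); both are also made by keratinocytes. The list's median was 1.57, and in 15 of the 18 both day-6 libraries lay above both day-0 libraries (83.3% against 37.6% of all genes). No neutrophil gene passed without the first day-0, the second day-0 or the first day-6 library. Csf3r, the receptor for G-CSF, had 3.88 and 3.5 FPKM at day 0 and 19.3 and 12.5 at day 6 (log2 fold change 1.82, SE 0.683, adjusted p 0.0517), and Cxcr2 had 3.91 and 1.58 FPKM at day 0 and 16.2 and 9.32 at day 6 (log2 fold change 1.90, SE 0.727, adjusted p 0.0555). Neither passed, although their groups did not overlap and some alternatives called them (Csf3r at 0.0309 with only the 4 libraries and Cxcr2 at 0.0446 with the replicate block). Ly6g and 5 other neutrophil genes did not reach the level to be tested. Of 33 macrophage genes 5 rose (15.2%) and 1 fell (median 0.58). Arg1, which breaks down arginine, had 26.3 and 13.4 FPKM at day 0 and 452 and 202 at day 6 (log2 fold change 3.93, SE 0.652, adjusted p 0.000715). Retnla, a gene of alternatively activated macrophages and fat, fell, with 81.2 and 240 FPKM at day 0 and 3.65 and 19.2 at day 6 (log2 fold change -3.86, SE 0.937, adjusted p 0.0067); Retnla did not pass with only the 4 libraries (adjusted p 0.0685), with array weights (adjusted p 0.118), without the second day-0 library (adjusted p 0.0503) or without the first day-6 library (adjusted p 0.0733). The 2 day-0 libraries differed in general macrophage genes. C1qa had 58.2 and 300 FPKM at day 0 and 178 and 221 at day 6, and Cd68 had 18.5 and 71.8 FPKM at day 0 and 47.3 and 77.1 at day 6. Neither passed in the full comparison (adjusted p 0.401 and 0.228), and both did without the second day-0 library (0.000876 and 0.0013). Without the second day-0 library 18 macrophage genes rose and none fell, and without the first 2 rose and 3 fell. It was 3 and 0 without the first day-6 library, with array weights or with only the 4 libraries, and 2 and 1 without the second day-6 library. The direction of the list therefore depended on which day-0 library was used.

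Of 15 Langerhans and dendritic genes 10 rose (66.7% against 22.8% of all genes) and none fell (median 1.40). Cd74, the invariant chain of class II molecules, had 98.3 and 160 FPKM at day 0 and 429 and 412 at day 6 (log2 fold change 1.74, SE 0.428, adjusted p 0.00732), and the class II chain H2-Aa had 61.2 and 87.5 FPKM at day 0 and 320 and 275 at day 6 (log2 fold change 2.0, SE 0.412, adjusted p 0.00257). Ccr7, the homing receptor of migrating dendritic cells, had 0.258 and 0.356 FPKM at day 0 and 3.65 and 3.21 at day 6 (log2 fold change 1.76, SE 0.357, adjusted p 0.00242). In all 3 the days did not overlap, which the filter fixed for Ccr7, under 1 FPKM in both day-0 libraries. Cd74 did not pass with array weights (adjusted p 0.076) or without the first day-0 library (adjusted p 0.0655). H2-Aa did not pass with array weights (adjusted p 0.0547). The count was 8 with only the 4 libraries and 3 with array weights. Of 15 lymphocyte genes 4 rose (26.7%, near the 22.8% of all genes), and 2 did without the first day-0 library or with array weights. One of the 4 was Klrd1 of killer cells, with 0.675 and 0.654 FPKM at day 0 and 7.23 and 3.75 at day 6 (log2 fold change 1.91, SE 0.297, adjusted p 0.000486). Klrd1, and Cd4 and Gzmb, which are also among the 4, were under 1 FPKM in both day-0 libraries. For them the filter fixed the direction. Gzmb did not pass under 2 alternatives.

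Cell division genes rose as a group, by small amounts on the log2 scale of FPKM + 1, which understates changes of low genes. All 37 mitosis genes were called higher (100% against 22.8% of all genes), with a median of 0.95 and a range of 0.48 to 1.47. Among 33 DNA replication genes 28 rose (84.8%, median 0.75). With limma-voom the medians of the 2 lists were 1.26 and 0.97. Mki67, which coats mitotic chromosomes, had 3.75 and 6.56 FPKM at day 0 and 16.9 and 12.9 at day 6 (log2 fold change 1.40, SE 0.216, adjusted p 0.000458). Top2a, which untangles DNA, had 2.91 and 5.24 FPKM at day 0 and 13.8 and 11.6 at day 6 (log2 fold change 1.47, SE 0.203, adjusted p 0.000228). Ccnb1, cyclin B1, had 2.58 and 3.61 FPKM at day 0 and 10.6 and 7.76 at day 6 (log2 fold change 1.31, SE 0.189, adjusted p 0.000293), and Mcm5 of the replicative helicase had 2.25 and 4.11 FPKM at day 0 and 11.2 and 10.6 at day 6 (log2 fold change 1.54, SE 0.214, adjusted p 0.000236). In each the lower day-6 library lay above the higher day-0 library. These calls rested on the shared estimate of the spread: with only the 4 libraries 1 mitosis and 2 replication genes passed. In that fit 381 of all 13913 genes were higher, so the mitosis count did not stand out. Mki67 did not pass with only the 4 libraries (adjusted p 0.0623). Top2a did not pass with only the 4 libraries (adjusted p 0.0548). With 1 library left out 29 to 37 mitosis genes rose.

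Matrix genes were higher at day 6 mainly against the first day-0 library. Of 28 genes of provisional and elastic matrix 12 rose (42.9% against 22.8% of all genes) and none fell (median 1.0). Postn, periostin, had 40.7 and 104 FPKM at day 0 and 192 and 379 at day 6 (log2 fold change 2.04, SE 0.453, adjusted p 0.00409), though Postn did not pass with only the 4 libraries (adjusted p 0.095). Tnc, tenascin C, had 2.95 and 15.9 FPKM at day 0 and 48.9 and 67.8 at day 6 (log2 fold change 2.84, SE 0.778, adjusted p 0.0128); it did not pass with only the 4 libraries, without the first day-0 library or without the second day-6 library. The list gave 2 genes without the first day-0 library, 17 without the second, 3 without the second day-6 library and none with only the 4 libraries. Of 8 fibrillar collagen genes 2 rose (25%). Col1a1 had 253 and 973 FPKM at day 0 and 665 and 1713 at day 6 and did not pass (log2 fold change 1.10, SE 0.615, adjusted p 0.174), and Col3a1 had 197 and 760 FPKM at day 0 and 597 and 1330 at day 6 and did not pass either (log2 fold change 1.20, SE 0.566, adjusted p 0.111). For both the second day-0 library lay between the day-6 libraries. Without it Col1a1 had an adjusted p of 0.0197 and Col3a1 of 0.00772, and 6 of the 8 rose. Fn1, fibronectin, had 12.8 and 95.5 FPKM at day 0 and 25.5 and 73.4 at day 6 and did not pass (adjusted p 0.783, and 0.0374 without the second day-0 library).

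**Figure D3:**
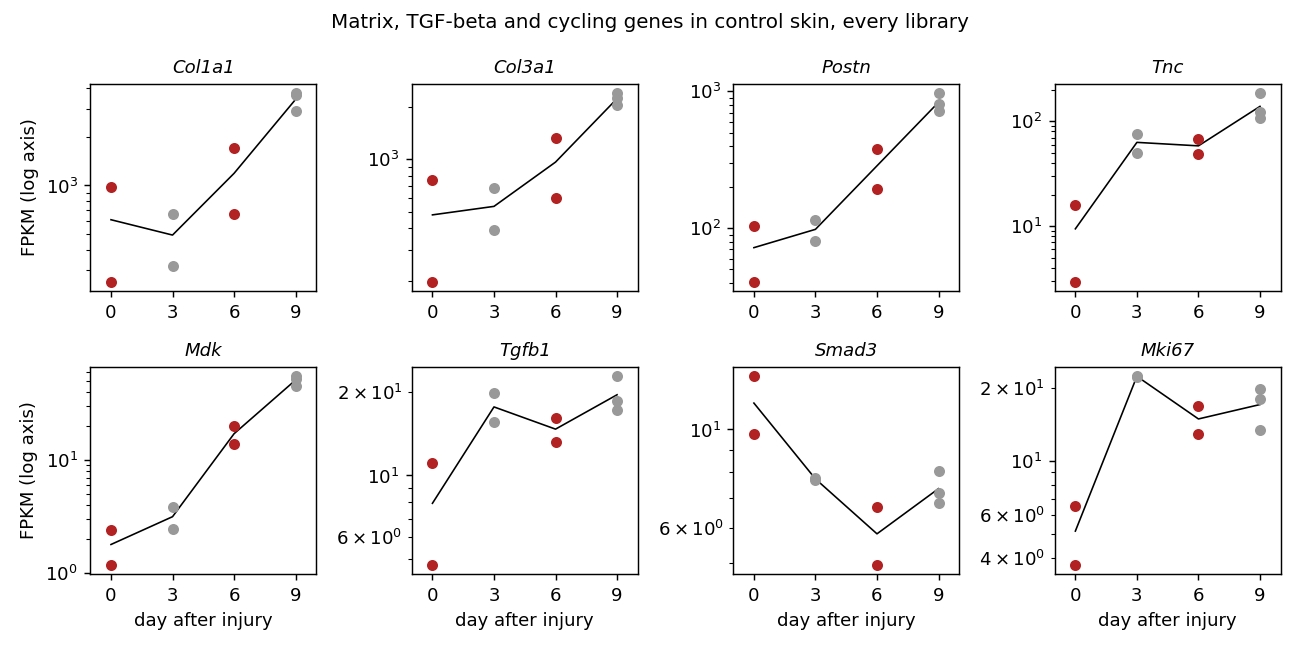
FPKM on a log axis against the day after injury for matrix, TGF-β and cell cycle genes. Each point is a library, red for days 0 and 6, grey for days 3 and 9, and the line joins the means; the day-0 points of Col1a1 and Col3a1 lie far apart.

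Some genes of the collagen, metalloproteinase, myofibroblast and growth factor lists passed under every alternative, and 3 of them, from different lists, are given here. Which cells of the skin expressed them was not tested. Others that rose, such as Col12a1 and Mmp14, did not pass with only the 4 libraries. Lrrc15, a membrane protein of activated fibroblasts, had 0.481 and 3.12 FPKM at day 0 and 22.2 and 56.5 at day 6 (log2 fold change 3.89, SE 0.733, adjusted p 0.00154). Mmp11, a stromal metalloproteinase, had 2.08 and 3.56 FPKM at day 0 and 13.9 and 25.2 at day 6 (log2 fold change 2.40, SE 0.415, adjusted p 0.000928). In its list of 21 metalloproteinases and inhibitors 4 rose (19.0%, under the 22.8% of all genes) and 2 fell (9.52%). Mdk, the heparin-binding growth factor midkine, had 1.19 and 2.4 FPKM at day 0 and 14 and 20.2 at day 6 (log2 fold change 2.71, SE 0.266, adjusted p 4.27e-05). The groups were separate in all 3. Acta2, the actin of myofibroblasts and vessel walls, had 69.9 and 98.7 FPKM at day 0 and 119 and 219 at day 6 and did not pass (log2 fold change 0.95, SE 0.406, adjusted p 0.0813), although it did without the first day-6 library (adjusted p 0.0486). Of 19 myofibroblast and smooth muscle genes 2 rose (10.5%) and 6 fell (31.6% against 15.8% of all genes). The count of higher genes was 4 without the second day-0 library and 5 without the first day-6 library, and with only the 4 libraries 1 rose and 4 fell. The 6 included Tpm1, Tpm2 and Des, which striated muscle also expresses, and they moved with the muscle list below; the part of striated muscle in these calls was not tested.

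Of 26 genes of the TGF-β pathway 6 rose and 2 fell, with a median of 0.16. Those shares, 23.1% and 7.69%, stand beside 22.8% and 15.8% of all genes, so the share of higher genes was at the background. Tgfb1 (ENSMUSG00000002603, chromosome 7, 25687002 to 25705077) had 4.78 and 11.1 FPKM at day 0 and 13.2 and 16.1 at day 6 (log2 fold change 0.90, SE 0.323, adjusted p 0.0439). Tgfb1 did not pass under 11 alternatives (adjusted p 0.0584 to 0.398), among them 0.398 without the first day-0 library, 0.0821 without the first day-6 library and 0.17 without the second day-6 library. The second day-0 library lay above the first and near the lower day-6 library. Tgfb2 had 3.88 and 4.91 FPKM at day 0 and 2.6 and 4.39 at day 6, and Tgfb3 had 6.98 and 14.4 FPKM at day 0 and 8.89 and 14.8 at day 6; neither passed (adjusted p 0.263 and 0.699), although Tgfb2 was lower without the second day-6 library (0.0428) and with the nuclear total without muscle genes (0.0497). The receptors Tgfbr1 and Tgfbr2 did not pass (adjusted p 0.429 and 0.891), and Tgfbr1 was higher without the second day-0 library (0.00382). Smad3 fell, with 9.74 and 13.2 FPKM at day 0 and 4.95 and 6.68 at day 6 (log2 fold change -0.87, SE 0.149, adjusted p 0.000877), though Smad3 did not pass with only the 4 libraries (adjusted p 0.0923). Smad2 had 7.14 and 7.79 FPKM at day 0 and 11.5 and 11.6 at day 6 (log2 fold change 0.57, SE 0.102, adjusted p 0.00118), and Smad2 did not pass with the nuclear total without muscle genes (adjusted p 0.0749) or with only the 4 libraries (adjusted p 0.1). Smad4 and Smad7 did not pass (adjusted p 0.367 and 0.601), although Smad4 was lower with the nuclear total without muscle genes (0.028). Skil, which represses SMAD targets, had 2.85 and 3.92 FPKM at day 0 and 10.9 and 9.38 at day 6 (log2 fold change 1.35, SE 0.194, adjusted p 0.00029). Rescaled to nuclear genes without muscle, 1 gene of the list rose and 5 fell, and with the nuclear total 3 and 2. Over all 13913 genes the same scalings gave 1312 higher and 4228 lower, and 1680 and 3184. The count of higher genes was 3 without the first day-0 library, 2 without the first day-6 library, 3 without the second day-6 library, and 2 with array weights or with only the 4 libraries.

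Of 31 growth factor and receptor genes 4 rose and 4 fell (12.9% each way, under the shares of all genes; median 0.08). With 1 library left out 4 to 6 rose and 4 to 6 fell, and with only the 4 libraries 2 and 2. Epgn, an epidermal ligand of the EGF receptor, had 4.76 and 2.32 FPKM at day 0 and 43.9 and 24.4 at day 6 (log2 fold change 2.95, SE 0.608, adjusted p 0.00263). Fgf18, a fibroblast growth factor of the hair follicle, fell, with 15.2 and 7.91 FPKM at day 0 and 1.11 and 2.17 at day 6 (log2 fold change -2.21, SE 0.385, adjusted p 0.00095). The groups were separate in both. Of 30 vessel genes 6 rose (20%) and 3 fell (10%), both under the shares of all genes (median 0.38). Without the first day-0 library 0 rose and 4 fell, without the second day-6 library 1 and 4, with array weights 3 and 1, and with only the 4 libraries 1 and 0. Aplnr, the apelin receptor of sprouting vessels, had 4.17 and 7.21 FPKM at day 0 and 19.8 and 19.2 at day 6 (log2 fold change 1.66, SE 0.405, adjusted p 0.00704), and Aplnr did not pass without the first day-0 library (adjusted p 0.0638). Pecam1, a junction protein of endothelium, had 18.7 and 21.8 FPKM at day 0 and 29.4 and 30.6 at day 6 (log2 fold change 0.55, SE 0.195, adjusted p 0.0424). Pecam1 did not pass under 11 alternatives (adjusted p 0.052 to 0.456), among them 0.195 without the first day-0 library, 0.052 without the second day-0 library, 0.108 without the first day-6 library and 0.127 without the second day-6 library. Vegfa, the main vessel growth factor, had 22.5 and 14.2 FPKM at day 0 and 26.1 and 15.6 at day 6 and did not pass (adjusted p 0.711). Of 27 genes of protein folding and secretion 10 rose (37%) and 1 fell. With the nuclear total it was 4 and 1, beside 1680 higher and 3184 lower of all 13913 genes. The list's median of 0.42 became 0.23 without the first day-0 library and 0.7 without the second.

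Genes of glucose uptake and hypoxia split. Of 25, 11 rose (44%) and 3 fell (12%; median 0.53). Hif1a, the hypoxia-inducible factor, had 13.7 and 13.1 FPKM at day 0 and 78.7 and 42 at day 6 (log2 fold change 2.02, SE 0.357, adjusted p 0.00104). Its hydroxylase Egln3 had 20.2 and 29.4 FPKM at day 0 and 180 and 97.1 at day 6 (log2 fold change 2.39, SE 0.291, adjusted p 0.000116), the glucose carrier Slc2a1 had 15.2 and 13.2 FPKM at day 0 and 75 and 43.8 at day 6, and the glycolytic enzyme Eno1 had 36.7 and 49.6 FPKM at day 0 and 227 and 185 at day 6 (log2 fold change 2.24, SE 0.192, adjusted p 2.14e-05). Aldoa, an aldolase abundant in muscle, fell instead, with 1565 and 1184 FPKM at day 0 and 303 and 286 at day 6 (log2 fold change -2.20, SE 0.171, adjusted p 1.41e-05). The count of higher genes was 6 with only the 4 libraries. Of 21 cholesterol synthesis genes 11 rose (52.4%) and none fell. Sqle, squalene epoxidase, had 7.31 and 6.77 FPKM at day 0 and 32.1 and 21.1 at day 6 (log2 fold change 1.75, SE 0.287, adjusted p 0.000668). That count was 3 with only the 4 libraries, 6 with array weights and 6 without the first day-6 library.

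Skeletal muscle genes fell together. Of 34 tested genes 30 fell and 1 rose, against 15.8% of all genes lower, with a median of -2.49. Acta1, skeletal actin, had 10050 and 8582 FPKM at day 0 and 1137 and 1545 at day 6 (log2 fold change -2.81, SE 0.447, adjusted p 0.000555). Pvalb, the calcium buffer of fast fibres, had 2233 and 1348 FPKM at day 0 and 56.9 and 177 at day 6 (log2 fold change -4.10, SE 0.654, adjusted p 0.000571). Tcap, a protein of the sarcomere's Z disc, had 882 and 673 FPKM at day 0 and 80.2 and 88.4 at day 6 (log2 fold change -3.18, SE 0.366, adjusted p 8.91e-05). Both day-6 libraries lay under both day-0 libraries in each. Muscle atrophy ligases fell too. Trim63 had 85.3 and 164 FPKM at day 0 and 6.05 and 8.25 at day 6 (log2 fold change -3.89, SE 0.585, adjusted p 0.000388), and Fbxo32 had 59.1 and 76.8 FPKM at day 0 and 3.2 and 5.31 at day 6 (log2 fold change -3.73, SE 0.606, adjusted p 0.000636). Pdk4, a kinase that turns off pyruvate oxidation, was also among the 12 lowest, with 378 and 187 FPKM at day 0 and 6.58 and 9.57 at day 6 (log2 fold change -4.90, SE 0.542, adjusted p 7.96e-05). The list still gave 28 lower with only the 4 libraries and 24 to 29 with 1 library left out. The 4 members that did not fall were Tpm3, which rose (log2 fold change 0.66, SE 0.166, adjusted p 0.00794), and Tnni1, Tnnt1 and Tnnc1, troponin subunits of slow fibres. Tpm3 did not pass under 6 alternatives (adjusted p 0.0503 to 0.137), among them 0.0652 without the first day-0 library and 0.0689 without the first day-6 library. Tnnc1 had 1.74 and 39.1 FPKM at day 0 and 50.2 and 39.5 at day 6 and did not pass (adjusted p 0.0901), and it passed without the second day-0 library (0.00085).

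**Figure D4:**
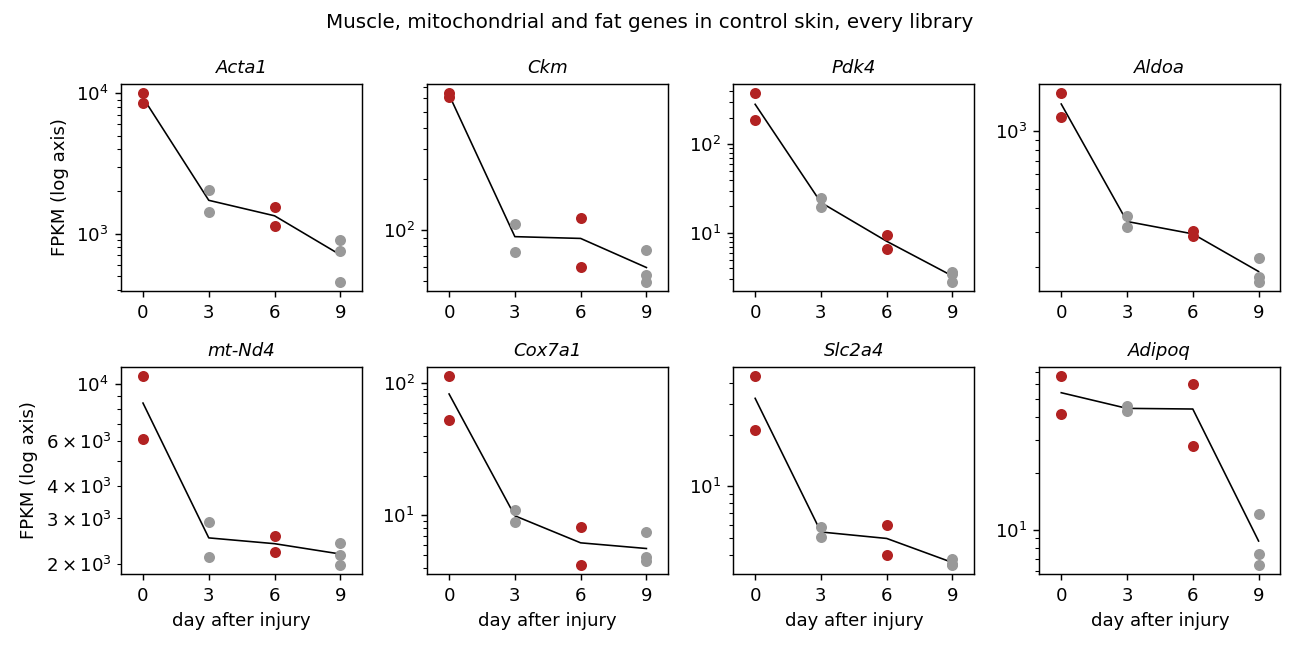
FPKM on a log axis against the day after injury for muscle, mitochondrial and fat genes. Each point is a library, red for days 0 and 6, grey for days 3 and 9, and the line joins the means; 7 of the 8 genes were lower at day 6, and Adipoq overlapped between the days.

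Mitochondrial genes fell in the same libraries. All 12 tested mitochondrially encoded genes fell (100% against 15.8% of all genes, median -1.55). So did 36 of 47 nuclear genes of the respiratory chain (76.6%), of which 2 rose (median -0.65). In the citric acid cycle and fatty acid oxidation 24 of 32 fell (75.0%, median -0.67). mt-Nd4, a subunit of complex I, had 10730 and 6130 FPKM at day 0 and 2563 and 2226 at day 6 (log2 fold change -1.76, SE 0.233, adjusted p 0.000177). Cox7a1, the complex IV subunit of heart and muscle, had 114 and 52.7 FPKM at day 0 and 4.21 and 8.15 at day 6 (log2 fold change -3.51, SE 0.432, adjusted p 0.000125). Ucp3, a muscle carrier, had 37.6 and 22.5 FPKM at day 0 and 2.34 and 3.13 at day 6 (log2 fold change -3.02, SE 0.264, adjusted p 2.39e-05). The first day-0 library was the highest for each. Muscle transcripts fell in the same comparison, and their part in the mitochondrial values was not tested. With only the 4 libraries no mitochondrially encoded gene, 1 respiratory and 5 cycle and oxidation genes passed, beside 392 lower of all 13913 genes. mt-Nd4 did not pass with only the 4 libraries (adjusted p 0.0685).

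Of 15 Schwann cell and nerve genes 6 fell (40% against 15.8% of all genes) and none rose. With 1 library left out 2 to 6 of them fell, and 1 with array weights. Of 25 adipocyte genes 5 fell (20%, near the 15.8% of all genes) and 1 rose. The count of lower genes was 2 without the first or the second day-0 library and 1 without the first day-6 library or with array weights. Slc2a4, the insulin-responsive glucose carrier of fat and muscle, had 43.8 and 21.3 FPKM at day 0 and 3.98 and 5.98 at day 6 (log2 fold change -2.42, SE 0.356, adjusted p 0.000332), whereas Adipoq, adiponectin, had 41.8 and 66.2 FPKM at day 0 and 28.1 and 60.2 at day 6 and did not pass (adjusted p 0.686). With only the 4 libraries 3 nerve genes and 1 adipocyte gene fell. Of 19 clock genes 2 rose and 6 fell (31.6% against 15.8% of all genes), among them the repressor Nr1d1 with 34.6 and 39 FPKM at day 0 and 7.51 and 9.73 at day 6 (log2 fold change -1.98, SE 0.237, adjusted p 0.000108). The count of lower clock genes was 1 with only the 4 libraries, 2 with array weights, 3 without the first day-0 library and 2 without the first day-6 library. Of 30 hair shaft and inner root sheath genes only 2 reached the level to be tested.

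**Figure D5:**
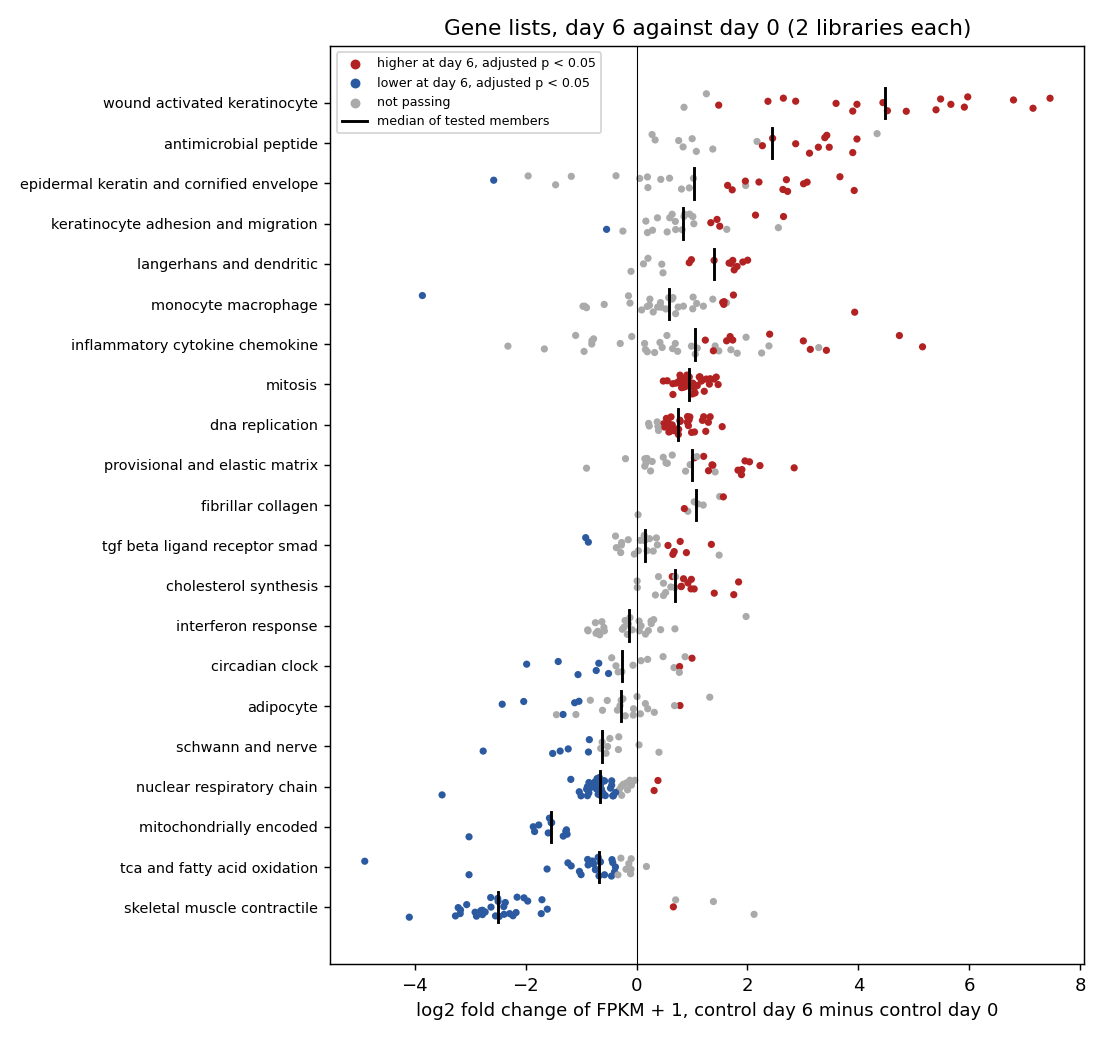
Log2 fold change of FPKM + 1, day 6 minus day 0 (horizontal axis), for each tested gene of 21 lists (rows). Red points passed as higher, blue as lower, grey did not pass, and black bars are medians, from 4.48 for wound keratinocyte genes to -2.49 for skeletal muscle.

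Day 6 was also set against the control groups before and after it. Against day 3, 6 genes passed (0.0431% of genes tested), all higher: Gm37857, Klk14, Klra7, Klra8, Mcpt8 and Mdk, of which Gm37857, Klk14, Klra7 and Klra8 were named after their values were seen. At an unadjusted p under 0.05 the count was 1674. The genes were chosen by their day-0 and day-6 values alone. A gene high only at day 3 was therefore not tested, which favours higher calls. With no filter 40 genes passed, 25 higher and 15 lower. Klk14, a kallikrein of the upper epidermis, had 0.911 and 0.451 FPKM at day 3 and 15.8 and 12.7 at day 6 (log2 fold change 3.19, adjusted p 0.00504). Mdk had 3.86 and 2.47 at day 3 and 14.0 and 20.2 at day 6 (log2 fold change 2.12, adjusted p 0.0161). Mcpt8, a protease of basophils, was listed at 0 in both day-0 libraries and had 0.512 and 0.406 FPKM at day 3 and 2.40 and 2.17 at day 6. It was tested only through its day-6 values, so the filter favoured its direction. No gene passed against day 3 with only those libraries, with array weights, without the day-3 library numbered 3 or without the first day-6 library. Without the day-3 library numbered 1 it was 1 gene, and without the second day-6 library 3. Day 9 against day 6 gave 366 genes (2.63%), 284 higher (2.04%) and 82 lower (0.589%), but 0 without the first day-6 library, 1056 without the second, and 4 and 5 without the first or the second day-9 library. These comparisons share the day-6 libraries with the main one.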

How the data were processed

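Total RNA of whole mouse skin was made into Smart-Seq2 libraries and sequenced as read pairs, per the labels' protocols. The authors deposited 1 table of FPKM per gene and library; HISAT2 2.2.1 and mm10 are named in the submitters' processing notes, and the counting tool is not given in the sources used here. FPKM multiplied by GENCODE M21 exon length gave whole fragments (within 0.05) in 91.9% of nonzero values, which served for depth and a limma-voom alternative. Intervals of counting were not computed.

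Genes with at least 1 FPKM in at least 2 of the 4 libraries were tested on log2(FPKM + 1), which understates changes of low genes. limma 3.58.1 in R 4.3.3 (trended prior variance) was fitted to 7 group means over 17 libraries, so day 0 and day 6 shared the spread of all groups, with Benjamini-Hochberg adjustment over 13913 genes at 0.05. The fitting was tested on simulated data, drawn with the same spread of a gene in all groups. That cannot show how the calls hold where groups differ in spread. Python 3.11.15 with pandas 2.3.3 made the tables.

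The members and lists were chosen with earlier results of these data known. Named genes were the 12 highest and 12 lowest passing protein-coding genes with separate groups (mean of at least 5 FPKM; names of the Gm, AC and Rik kind were not taken as symbols), up to 5 passing genes a list, and a fixed set of keratins, matrix and TGF-β genes. Of 207 such genes the text describes a part. Alternatives changed the pseudocount, filter, scaling, spread, block or weights, or left out a library, 1 at a time; limma-voom changed the values, the weighting and the genes tested (12182) together.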

Additional observations from a re-analysis of the deposited data

How the results depend on the processing

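Of 207 named genes 187 passed, and 71 of these kept their call and direction under every alternative. Over 3676 values of named genes under alternatives, 416 were no longer past the threshold, 11 newly passed and 32 changed sign, all of them for genes that did not pass. For day 6 against day 0 the count went from 5369 to 773 with only the 4 libraries, 2608 with array weights and 1591 with a change of at least 1 required; the replicate block gave 5492. Day 6 against day 3 (6 genes) gave 1 with a pseudocount of 0.1, 40 with no filter, 2 at a minimum of 5 FPKM, 3 with a filter over all 17 libraries, 10 with median-of-ratios scaling, 0 with only the libraries of the groups, 2 with the replicate block, 0 with array weights, 3 with limma-voom and 0 to 3 with 1 library left out. Day 9 against day 6 (366) gave 135 and 570 with pseudocounts of 0.1 and 5, 226 at a minimum of 5 FPKM, 556 with the 17-library filter, 584 with median-of-ratios scaling, 1214 with the nuclear total, 1012 with that total without muscle, 803 with quantile normalization, 0 with only its libraries, 1151 with the block, 119 with a change of at least 1 and 0 to 1056 with 1 library left out. The cause was not tested. The labels do not say that numbers pair libraries, and the block is given only as an alternative. Deviations from group means of same-numbered day-0 and day-6 libraries correlated at 0.274. With 2 libraries in a group the deviations mirror each other, so both numbers must give the same value, and it is 1 result.

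The sign of these log2 changes turned. With nuclear-total scaling, Tgfb3 was at -0.038, Tgfbr2 was at -0.151, Smad7 was at -0.023, Krt10 was at -0.033 and Vegfa was at -0.054. With the nuclear total without muscle genes, Tgfb3 was at -0.157, Tgfbr1 was at -0.085, Tgfbr2 was at -0.277, Smad7 was at -0.118, Krt10 was at -0.163, Fn1 was at -0.063 and Vegfa was at -0.179. With median-of-ratios scaling, Tgfbr2 was at -0.054. With quantile normalization, Tgfbr2 was at -0.037 and Krt10 was at -0.035. With 1 library left out, the range was -1.085 to 0.754 for Bst2, -0.3 to 0.695 for Krt25, -0.576 to 0.003 for Tgfb2, -0.308 to 0.645 for Tgfb3, -0.238 to 0.708 for Tgfbr1, -0.53 to 0.666 for Tgfbr2, -0.322 to 0.022 for Smad4, -0.668 to 1.059 for Krt10, -1.12 to 1.684 for Fn1, -0.19 to 0.518 for Vegfa and -0.881 to 0.192 for Adipoq. A further 20227 of 34140 genes were under 1 FPKM in at least 3 of the 4 libraries and were not assessed; the part of depth in this was not tested.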

Other observations

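Gene families defined by symbol were counted after the values were seen, 25 in all, and those below are named for their counts. Over all genes 22.8% were higher and 15.8% lower. All 11 Sprr2 genes, small proline-rich envelope proteins, were higher at day 6 (median log2 change 5.74), as were 6 of 6 late cornified envelope 3 genes (5.22), 10 of 10 tested kallikreins (3.54) and 5 of 6 stefin A genes (5.55). With only the 4 libraries 5 of the 11 Sprr2 genes passed. For members under 1 FPKM in both day-0 libraries the filter fixed the direction. The table held 22 kallikreins, of which 10 were tested. Of 14 late cornified envelope 1 genes, of normal epidermis, 5 were higher (1.03), which became 4 with median-of-ratios scaling, 3 with quantile normalization, 2 with the nuclear total and 1 without muscle in that total. In the same order, the higher genes among all 13913 went from 3169 to 2350, 2442, 1680 and 1312. Of 7 desmosomal cadherins, which join keratinocytes, 5 were higher (2.56). Of 17 ATP synthase genes 16 were lower (-0.45), but 1 with only the 4 libraries.

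Cytosolic ribosomal protein genes followed the scaling. As deposited 45 of 100 were higher and 1 lower, with median-of-ratios scaling 7 and 2, with the nuclear total 5 and 4, and without muscle in that total 1 and 9. In the same order, all 13913 genes gave 3169 and 2200, 2350 and 2997, 1680 and 3184, and 1312 and 4228. The gene lower as deposited was Rpl3l, the muscle form, with 110 and 49.8 FPKM at day 0 and 2.37 and 4.07 at day 6 (log2 fold change -4.18, SE 0.365, adjusted p 2.39e-05 by limma with Benjamini-Hochberg adjustment).

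Long intergenic noncoding RNAs were lower more often than higher, with 66 lower and 15 higher of 206 tested, beside 1984 lower and 2963 higher of 12540 protein-coding genes. The lincRNA counts were 72 and 12 with median-of-ratios scaling, 77 and 12 with the nuclear total, 85 and 9 without muscle in that total and 9 and 4 with only the 4 libraries. In the same order, protein-coding genes gave 2737 lower and 2202 higher, 2903 and 1554, 3877 and 1206, and 353 and 339. Lower genes thus became more frequent in both classes with rescaling. The difference between the classes was not tested.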
